A study of Mus musculus with 7 samples.

Results

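The 4 genes of transferrin-bound iron uptake examined here, Tfrc, Tfr2, Steap3 and Slc11a2, were chosen by symbol, with earlier results of these data known. They were looked up in the deposited exon table through their RefSeq accessions. All 4 were listed, out of 5214 genes in all, and 5194 of those had a summed coverage signal of at least 1 in at least 1 stage. The 4 genes had 20 of the 30257 listed exon rows once 1 transcript was kept per gene. Tfrc and Tfr2 went in opposite directions between the 2 stages. With 1 added to each summed signal, Tfrc was 6.70-fold higher in erythroblasts and Tfr2 was 11.1-fold higher in progenitors, while Steap3 and Slc11a2 differed by less than 2-fold.

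The cells came from fetal livers of mice at E13.5, and all groups carried hemagglutinin-tagged Klf1, so that antibodies against the tag pull down EKLF, the erythroid transcription factor that Klf1 encodes. Cells were sorted by Ter119, a surface antigen of maturing red cells, and by CD71. Progenitors were Ter119-CD71- and Ter119-CD71+ cells in 1 group, and erythroblasts were Ter119+CD71+ cells, from at least 3 sorts of each. There were 7 samples, namely 1 EKLF ChIP-seq library and 1 input library per stage, 1 RNA library of progenitors and 2 of erythroblasts. CD71 is the protein product of Tfrc, so the sort itself used a member, and the stage difference of Tfrc is a description of cells chosen partly by its product.

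Red cell precursors take up iron as a complex with transferrin, which binds the transferrin receptor at the surface and is drawn into clathrin-coated vesicles. The vacuolar proton pump acidifies the endosome, iron is released, the ferrireductase STEAP3 reduces it, the transporter encoded by Slc11a2 (DMT1) moves it into the cytosol, and the receptor returns to the surface. Tfr2 encodes a second transferrin receptor that is known for iron sensing in hepatocytes and for its association with the erythropoietin receptor in erythroid cells. EKLF binds CACCC-like sequences and activates many red cell genes.

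The deposited values gave 1 column of exon coverage and 1 peak list per stage, so no difference below has a replicate check and no p-value is given. Coverage is not divided by exon length, so each gene or exon is set against itself in the other stage and levels of different genes are not compared. A table row had at least 0.80 in both columns, and an exon under that in either stage was not analysed here. In these bulk samples, fewer cells of a type and less RNA per cell cannot be told apart. Of the marker lists, alpha- and beta-globin were higher in erythroblasts, with a summed signal of 169 in progenitors and 5729 in erythroblasts, and of the early progenitor markers Lyl1 had 154 and 3.98 and Runx1 50.3 and 31.1, the latter less than 2-fold apart. The erythroid markers Slc4a1, Alas2 and Epb42 and the progenitor markers Kit, Gata2, Myb and Cd34 had no listed exon. Markers of B lymphoid, endothelial and stromal, macrophage, hepatocyte, or granulocyte and mast cells had no listed exon, and 1 of 5 megakaryocyte markers did. That marker, Gp1ba, had 9.35 in progenitors and 31.6 in erythroblasts on 1 listed exon (log2 difference 1.66), and its part in the rises of other genes was not tested. A marker whose exons are under 0.80 in either stage has no row, so a missing marker does not show that its cells were absent.

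The first comparison asked how RNA coverage of the receptor genes differs between the stages. Differences are log2 of erythroblasts over progenitors with 1 added to each summed signal, and a gene is said to have risen or fallen where it differed at least 2-fold. By this rule 1 of the 4 genes rose and 1 fell, and of all 5194 genes 15.3% rose and 13.2% fell. Tfrc, the receptor that carries most transferrin into erythroid cells, had a summed signal of 21.3 in progenitors and of 148 in erythroblasts, which gives a log2 difference of 2.74. Only 60 of 5194 genes had a difference at least as high, Tfrc included. Tfr2 had 60.6 in progenitors and 4.54 in erythroblasts. Its log2 difference was -3.47, and 9 genes had one at least as low, Tfr2 included. The distance between the receptors was 6.22 on the log2 scale. The place of these 4 genes in the distribution of all listed genes shows Tfrc and Tfr2 in opposite tails. As the 4 genes were chosen with earlier results of these data known, these places are descriptions.

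**Figure D1:**
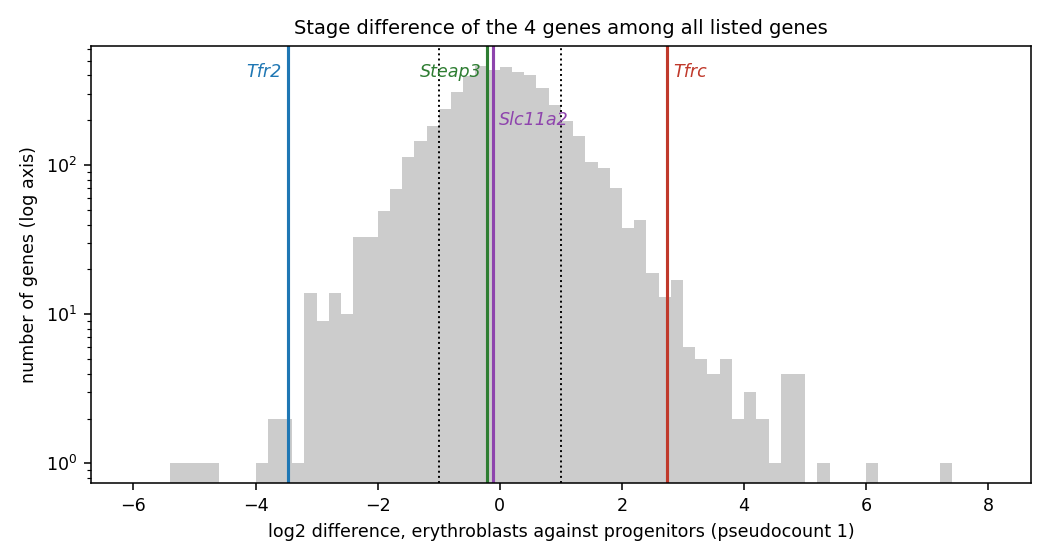
The grey histogram counts the 5194 genes (y axis, log scale) by their log2 difference, erythroblasts against progenitors (x axis), with dotted lines at the 2-fold rule. Coloured lines mark Tfrc at 2.74, Tfr2 at -3.47, Steap3 at -0.21 and Slc11a2 at -0.12.

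The 9 listed Tfrc exons lie on chromosome 16 (build mm9, forward strand) between 32614652 and 32628562. The table counts coding exons from 0, and the last listed one is number 17, so the transcript has at least 18. All 9 were higher in erythroblasts, by between 2.05-fold and 18.8-fold. Exon 2 had 2.10 in progenitors and 30.5 in erythroblasts, and exon 3 had 1.46 and 27.4. The 3' exons 16 and 17 had 1.15 and 1.30 in progenitors and 17.6 and 19.5 in erythroblasts. The exons at both ends of the listed stretch were therefore each over 14-fold higher in erythroblasts.

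The neighbouring exons 6, 7 and 8 stood apart from the other Tfrc exons. Exon 6 had 2.32 in progenitors and 7.62 in erythroblasts, exon 7 had 3.87 and 8.98, and exon 8 had 6.39 and 13.1. They were 3.28-fold, 2.32-fold and 2.05-fold higher in erythroblasts, and the other 6 were between 7.86-fold and 18.8-fold higher. In progenitors these 3 exons, at 2.32 to 6.39, made up 59.2% of the gene's summed signal, against 20.1% in erythroblasts, where they had 7.62 to 13.1. The other 6 had 0.86 to 2.10 in progenitors and 6.74 to 30.5 in erythroblasts. Their lowest progenitor value, 0.86, lay near the floor of 0.80, and a Tfrc exon under that floor in either stage has no row. The log2 difference was 1.18 over these 3 exons and 3.62 over the other 6. This grouping was made after the values were seen. The SD of the log2 ratios over the Tfrc exons was 1.26, above that of 97.1% of the 2118 genes with at least 4 listed exons, whose median was 0.67. Exons are not replicates, and this SD describes spread within the gene.

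Tfr2 had 2 listed exons, numbers 8 and 9, which start 0.208 kb apart at 138018686 and 138018894 on chromosome 5 (mm9, forward strand). Exon 8 had 22.7 in progenitors and 2.01 in erythroblasts. Exon 9 had 37.9 in progenitors and 2.54 in erythroblasts. They were 11.3-fold and 14.9-fold higher in progenitors, so the direction was the same in both, but the fall of Tfr2 rests on 2 neighbouring exons of at least 10.

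EKLF binds CACCC-like letters, so the promoters of the receptor genes are shown where RefSeq (GRCm38.p6) gives them, each from 250 bases before to 50 after an annotated start. Promoters of 3 of the 4 genes matched by symbol. Slc11a2 had no entry. Capitals mark CCNCNCCC, TGATAA or AGATAA on either strand, the last pair being forms of the GATA factor motif. The most upstream Tfrc start (chr16:32608646-32608945, forward strand) and the most upstream and most downstream of 3 Tfr2 starts (chr5:137569590-137569889 and chr5:137570725-137571024, forward strand) are printed for the contrast of the receptors. These positions are in another build than the peaks and cannot be set against them.
Tfrc: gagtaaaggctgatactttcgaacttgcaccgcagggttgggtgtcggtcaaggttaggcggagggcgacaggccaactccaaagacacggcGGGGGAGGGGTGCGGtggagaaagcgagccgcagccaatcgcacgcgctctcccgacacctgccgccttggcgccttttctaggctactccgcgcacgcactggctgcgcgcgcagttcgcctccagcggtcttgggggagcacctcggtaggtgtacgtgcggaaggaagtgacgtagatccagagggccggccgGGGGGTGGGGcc
Tfr2 upstream start: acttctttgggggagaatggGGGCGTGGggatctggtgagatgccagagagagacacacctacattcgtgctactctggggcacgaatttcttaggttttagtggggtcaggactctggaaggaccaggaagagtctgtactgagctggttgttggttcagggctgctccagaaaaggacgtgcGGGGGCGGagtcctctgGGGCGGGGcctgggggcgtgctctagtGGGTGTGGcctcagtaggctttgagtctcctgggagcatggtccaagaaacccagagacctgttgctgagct
Tfr2 downstream start: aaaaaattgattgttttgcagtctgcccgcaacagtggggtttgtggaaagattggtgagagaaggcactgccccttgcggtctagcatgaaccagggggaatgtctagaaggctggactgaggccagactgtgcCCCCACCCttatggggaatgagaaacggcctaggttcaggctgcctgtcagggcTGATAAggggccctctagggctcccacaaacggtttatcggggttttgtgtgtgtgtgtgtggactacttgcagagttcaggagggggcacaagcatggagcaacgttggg

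The printed Tfrc promoter had 5 matches to CCNCNCCC, some overlapping, of which 1 was CCCCACCC and none CCACACCC, the form of the beta-globin CACCC box. The other Tfrc start had 3 matches, again with 1 CCCCACCC. The upstream Tfr2 promoter had 4 matches to CCNCNCCC, of which 1 was CCACACCC, on the strand opposite to the gene and starting 22 bases before the annotated start. The middle Tfr2 start had 2 matches, and the downstream one had 1, as CCCCACCC, and 1 TGATAA. Of 4 annotated Steap3 starts 3 had a CCNCNCCC match, and the most upstream one, with 1 CCCCACCC, also had AGATAA. Of 32851 promoters of the same length 49.5% held CCNCNCCC, 3.56% CCACACCC, 9.99% CCCCACCC, 11.2% AGATAA and 9.05% TGATAA. The letters CCNCNCCC thus were as common in promoters in general as not, and a match is a description of sequence and not a site.

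The reductase and the iron transporter of the endosome were examined next. Steap3 had 132 in progenitors and 114 in erythroblasts. Its log2 difference of -0.21 was under the rule and near the middle of the distribution (percentile 40.3). Its 4 listed exons lie on chromosome 1 (mm9, reverse strand) between 122124224 and 122140345. The 2 listed exons toward the 5' end, numbers 3 and 2, had 17.8 and 36.3 in progenitors and 22.5 and 38.2 in erythroblasts. The 2 toward the 3' end, numbers 1 and 0, had 21.2 and 56.7 in progenitors and 14.4 and 39.2 in erythroblasts. The ratio therefore went from 1.27-fold higher in erythroblasts at the 5' end to 1.45-fold higher in progenitors at the 3' end, with an SD of 0.45 on the log2 scale. Its 2 listed transcripts share these exons and values.

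Slc11a2 had 17.0 in progenitors and 15.6 in erythroblasts. Its log2 difference was -0.12, at percentile 44.3. Its 5 listed exons lie on chromosome 15 (mm9, reverse strand) between 100231699 and 100240514. The exon nearest the 5' end, number 13, had 7.33 in progenitors and 6.91 in erythroblasts. Exon 11 had 0.80 and 1.14, and exon 10 had 0.94 and 2.39. Exon 4 had 3.72 in progenitors and 1.62 in erythroblasts, and exon 3 had 4.19 and 3.52. Of the 5 exons 2 were higher in erythroblasts and 3 in progenitors, from 2.55-fold one way to 2.29-fold the other, so the small gene difference covers exons that differ in opposite directions. The value of 0.80 for exon 11 is the lowest of the whole progenitor column. The 2 listed Slc11a2 transcripts, numbered 1 apart, share the 5 exons with the same values, so the forms of the mRNA that differ in their iron-responsive element cannot be told apart here.

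**Figure D2:**
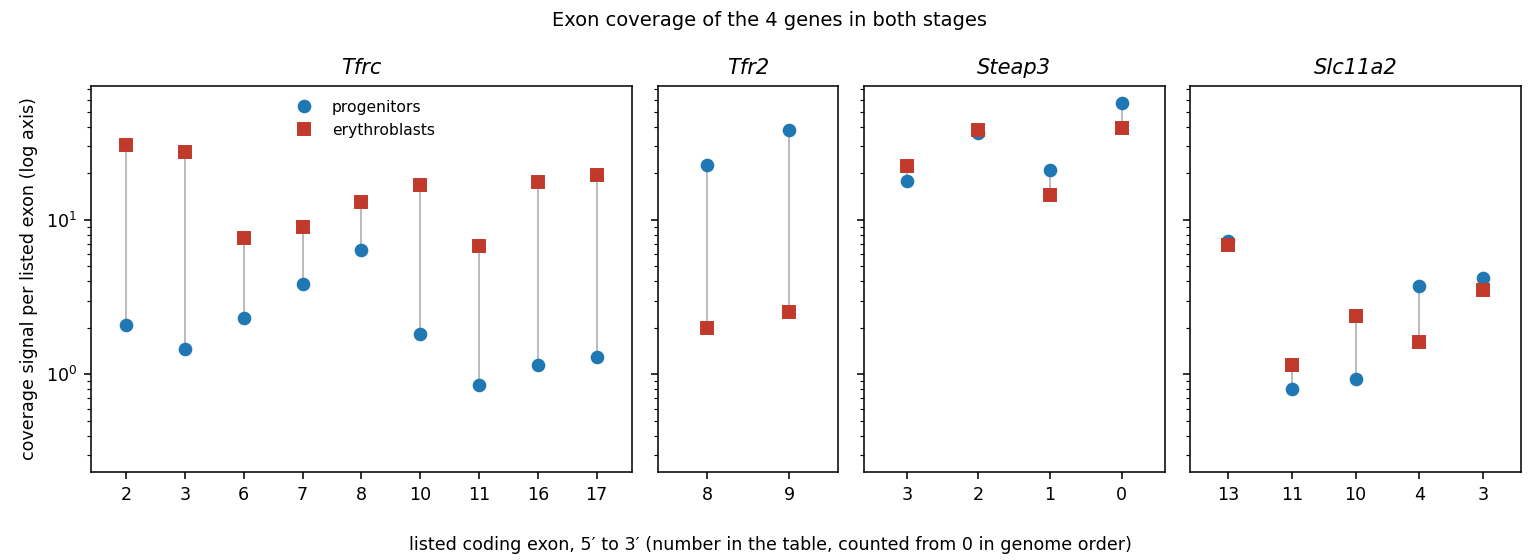
Coverage signal of each listed exon (y axis, log scale) in progenitors (blue circles) and erythroblasts (red squares), in 5' to 3' order with the number the table gives (x axis), 1 value per stage and exon and no error bar. All 9 Tfrc exons are higher in erythroblasts, least so at exons 6 to 8, both Tfr2 exons are higher in progenitors, and Steap3 and Slc11a2 exons go both ways.

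How much sequence lies behind these values can only be given under an assumption. Values came in whole steps of a fixed size per column, and if a step is 1 base of a 51-base read, the Tfrc sums stand for 765 reads in progenitors and 6249 in erythroblasts. For Tfr2 they stand for 2180 and 192 reads, for Steap3 for 4748 and 4823, and for Slc11a2 for 611 and 657. The weakest exon, Slc11a2 exon 11 in progenitors, would stand for 28.8 reads. Slc11a2 is the thinnest of the 4 in progenitors and Tfr2 in erythroblasts.

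Genes with nearly the same stage difference as Tfrc, among the 672 with at least as many listed exons, included Pklr (2.71), which encodes red cell pyruvate kinase, Ppox (2.56), an enzyme of heme synthesis, Nomo1 (2.53) and the spectrin gene Sptb (2.96). Pklr had 40.04 in progenitors and 268 in erythroblasts, and Ppox had 22.1 and 135. For Tfr2, among 3642 genes with at least 2 listed exons, they were Apbb1ip (-3.57), 1700017B05Rik (-3.18), the histone variant gene Macroh2a1 (-3.15), the cyclin gene Ccnd2 (-3.08) and Ndst2 (-3.05). Apbb1ip had 98.2 in progenitors and 7.36 in erythroblasts. Likeness was the gap between log2 differences over the 2 stages, 0.03 to 0.22 for Tfrc and 0.09 to 0.43 for Tfr2. Near the middle of the distribution such neighbours are many. For Steap3 they were Zbtb17, Brpf1, Psmd7, Sfswap and Psmb4, and for Slc11a2 Idh3g, Araf, Flad1, Nfya and Oat, all within 0.01.

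EKLF peaks near these genes were examined as the second comparison. A peak was taken where it lay within 50 kb of a listed exon start, in 1 pooled list of 7358 peaks in progenitors and 1 of 19353 in erythroblasts. Within this window all 4 genes had an erythroblast peak and 3 of 4 a progenitor peak, Steap3 being the exception. Over all genes 88.0% had an erythroblast peak and 70.1% a progenitor peak in the same window, so a peak within 50 kb was the usual state. Within 5 kb only Tfrc had a peak, in both lists, as did 26.9% of all genes. Enrichment is the authors' value and is read within 1 list.

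At Tfrc the strongest peak in each list lay upstream of the first listed exon, on the side of the unlisted 5' exons, and the peaks overlapped. In progenitors it ran on chromosome 16 from 32608306 to 32610052 (mm9), with an enrichment of 10.4 and rank 1210 of 7358. In erythroblasts it ran from 32608417 to 32609727, wholly inside the progenitor peak, with an enrichment of 26.5 and rank 720 of 19353. The median enrichment was 7.03 in the progenitor list and 9.31 in the erythroblast list, so this peak was above the median in each. It ended 4.60 kb before exon 2 in progenitors and 4.93 kb before it in erythroblasts. Midpoints were 107 bp apart. Coding exons 0 and 1 were not listed, and whether the peak covers the start of the gene was not tested.

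The other Tfrc peaks were weaker and farther away. An upstream pair ran from 32584162 to 32586151 in progenitors (enrichment 6.26, rank 3803) and from 32583927 to 32586885 in erythroblasts (4.87, rank 15539). A further upstream peak, from 32579882 to 32581703, was in the erythroblast list alone, with an enrichment of 8.83 and rank 11959. A downstream pair ran from 32643450 to 32645538 in progenitors (4.77, rank 7039) and from 32643196 to 32645247 in erythroblasts (8.27, rank 10895). That pair lay 14.9 and 14.6 kb past exon 17 and 23.9 and 24.2 kb before the nearest listed exon of Tnk2, the next gene, which encodes a tyrosine kinase. Unlisted Tnk2 exons may lie closer to that pair, and their distances were not analysed here. Within the window Tfrc thus had 3 progenitor peaks, all overlapped by erythroblast peaks, and 4 erythroblast peaks.

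At Tfr2 the nearest peaks lay over 22 kb away and nearer to other genes. Downstream, a progenitor peak from 138041259 to 138043586 on chromosome 5 (enrichment 6.68, rank 3858) and an erythroblast peak from 138041276 to 138042399 (7.10, rank 12169) covered the start of a listed exon of Mospd3. Upstream, a progenitor peak from 137971694 to 137974922 (6.39, rank 1624) covered a listed exon start of Gnb2, a G protein subunit gene, and an erythroblast peak from 137973987 to 137975537 (13.3, rank 8457) lay 2.06 kb from it. These peaks lay 22.4 to 43.8 kb from the listed Tfr2 exons. Unlisted Tfr2 exons may lie closer to these peaks, and their distances were not analysed here. Just past the limit, a pair at Lrch4 lay 50.6 and 50.7 kb from Tfr2. Gnb2 fell from 219 to 92.4 (log2 difference -1.24), and Mospd3 had 27.2 and 18.5, under the rule.

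The receptors thus differed in the direction of RNA coverage and in the distance from a listed exon to the nearest peak. That distance was taken from 9 listed exons of Tfrc over 13.9 kb, but from only 2 of Tfr2 over 0.208 kb. The 2 distances are therefore not like for like, and any link between peaks and RNA was not tested. Tfrc rose and had peaks of both lists 4.60 and 4.93 kb from its listed exons. Tfr2 fell and had its nearest peaks, of both lists, at 22.4 kb. Over all genes the nearest progenitor peak was at a median of 18.3 kb and the nearest erythroblast peak at 6.49 kb. The share of genes with a nearer erythroblast peak was 45.7% for Tfrc and 74.3% for Tfr2, and with a nearer progenitor peak 29.4 and 53.9%. The distances of both receptors were thus common among listed genes.

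Steap3 had no progenitor peak within 50 kb, the nearest being 106 kb away. Its only erythroblast peak in the window ran from 122078493 to 122079906 on chromosome 1, 44.3 kb past the 3' end of the listed exons, with an enrichment of 5.79 and rank 17572 of 19353. Slc11a2 had 1 peak in each list, upstream of its listed exons and overlapping. It ran on chromosome 15 from 100252586 to 100254543 in progenitors (enrichment 6.26, rank 2988) and from 100252484 to 100254217 in erythroblasts (9.19, rank 9356), 12.1 and 11.97 kb from the nearest listed exon. No other listed gene was within 117 kb of that pair. Unlisted Slc11a2 exons and unlisted genes may lie closer to that pair, and their distances were not analysed here.

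**Figure D3:**
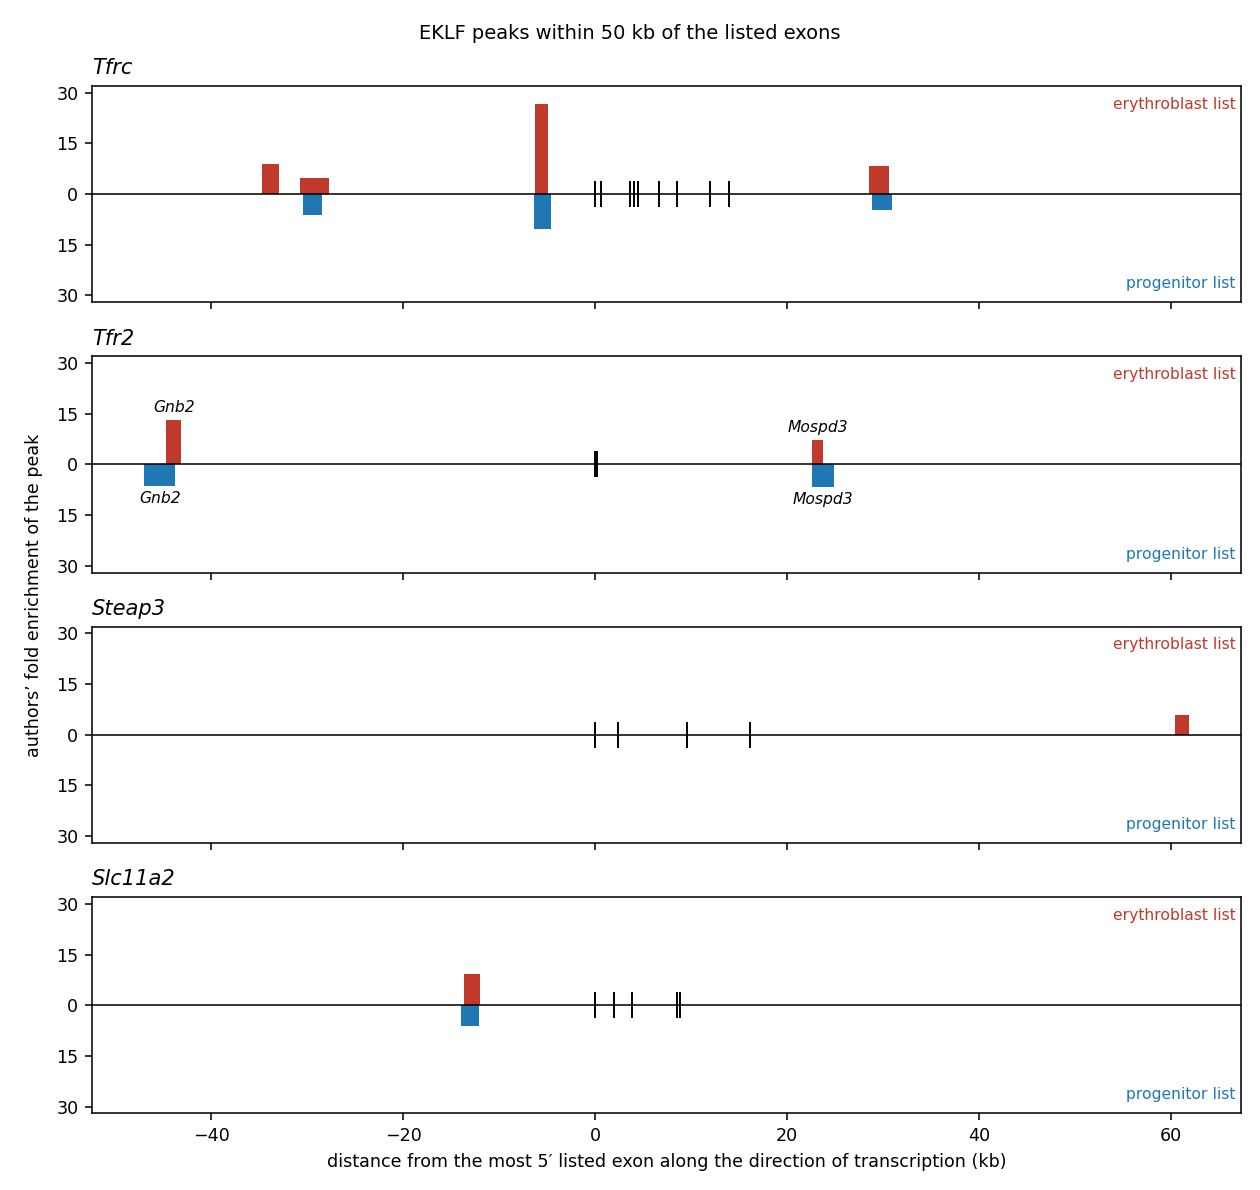
Peaks within 50 kb of the listed exons of each gene, placed by distance from the most 5' listed exon along transcription (x axis, kb) and drawn to width, with the authors' enrichment as height, erythroblast list up in red and progenitor list down in blue. Black ticks are listed exon starts and names mark peaks nearer to another listed gene. Heights are read within 1 list. The peak of 26.5 upstream of Tfrc is the tallest shown of the erythroblast list, and all peaks at Tfr2 are nearest to Gnb2 or Mospd3.

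The third comparison placed the 4 genes beside the rest of the iron uptake route, in 5 lists. The lists too were chosen with earlier results of these data known, so the shares below are descriptions. Over all 5194 genes the median log2 difference was 0.03, with 15.3% risen and 13.2% fallen. Of 21 genes of the transferrin cycle and endosomal iron uptake, other metal importers and reductases included, 10 were listed. Of these 4 rose (40.0%, against 15.3% of all genes), none fell (13.2% of all genes) and 6 did neither, with a median of 0.92. Picalm, a clathrin assembly protein known for its part in transferrin uptake by erythroblasts, rose from 9.42 to 78.3, with all 6 exons higher. Ehd1, which acts in endocytic recycling, rose from 52.1 to 215, Slc39a8, a metal importer, from 7.01 to 20.5, and Rab5c, a GTPase of early endosomes, from 78.7 to 171. Dnm2, the dynamin that pinches off coated vesicles, had 144 and 186, and Exoc6, an exocyst subunit of receptor recycling, had 22.9 and 22.6. Both stayed under the rule.

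The clathrin coat had fewer members past the rule. Of 17 genes 13 were listed, of which 2 rose and none fell (13.2% of all genes), with a median of 0.21. The adaptor subunit gene Ap2a1 rose from 83.6 to 263 with all 15 exons higher, and the epsin gene Epn1 from 206 to 674 with all 10 higher. The clathrin light chain gene Clta had 127 and 145. Hspa8, the uncoating chaperone and the best covered gene of the list, had 804 and 676. The share of listed members that rose, 15.4%, was near the 15.3% of all genes.

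All 16 genes of the vacuolar proton pump list were listed, and 8 rose (50%, against 15.3% of all genes) and none fell (13.2% of all genes), with a median of 0.98. Atp6v0b, of the membrane sector, rose from 6.56 to 43.2, the membrane subunit gene Atp6v0a1 from 19.6 to 69.7, Atp6v0c from 2.84 to 9.67 and the accessory gene Atp6ap2 from 4.70 to 12.01. Atp6v1b2 had 68.2 and 81.2, and Atp6v1f had 53.4 and 56.6, the best covered members under the rule. Of the 16 genes 15 had a positive difference. Many members are thinly covered and lie close to the rule. With a pseudocount of 5 in place of 1, only 2 of the 16 rose, as did 513 of all 5194 genes.

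Of 25 genes of iron storage, export and sensing 9 were listed, 2 rose (22.2%, against 15.3% of all genes) and none fell (13.2% of all genes), with a median of -0.23. Ncoa4, the receptor that takes ferritin to lysosomes, rose from 34.1 to 99.6, and Ftl1, the ferritin light chain, from 430 to 863, each on 1 listed exon. Ftl1, at a log2 difference of 1.01, stood at the edge of the rule and was under it with columns rescaled by the median exon ratio. Fth1, the ferritin heavy chain, had 789 and 744, and Pcbp1, an iron chaperone, had 365 and 255. Ferritin genes have near-identical processed copies in the genome, and how reads from such copies were counted was not stated. Of 12 genes of mitochondrial iron delivery 11 were listed, 3 rose (27.3%, against 15.3% of all genes) and none fell (13.2% of all genes), with a median of 0.30. Abcb10 rose from 14.1 to 463, the iron importer gene Slc25a37 from 6.42 to 196 and the scaffold gene Iscu from 6.76 to 17.9. Fech had 169 and 279, and Glrx5 64.5 and 77.4. Among the listed genes of these 5 lists none fell by the rule (13.2% of all genes), so Tfr2 was the only fall among them and the 4 genes. List genes without a row could not be seen to rise or to fall, since a row had at least 0.80 in both columns. The shares that rose or fell thus cover listed genes alone.

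**Figure D4:**
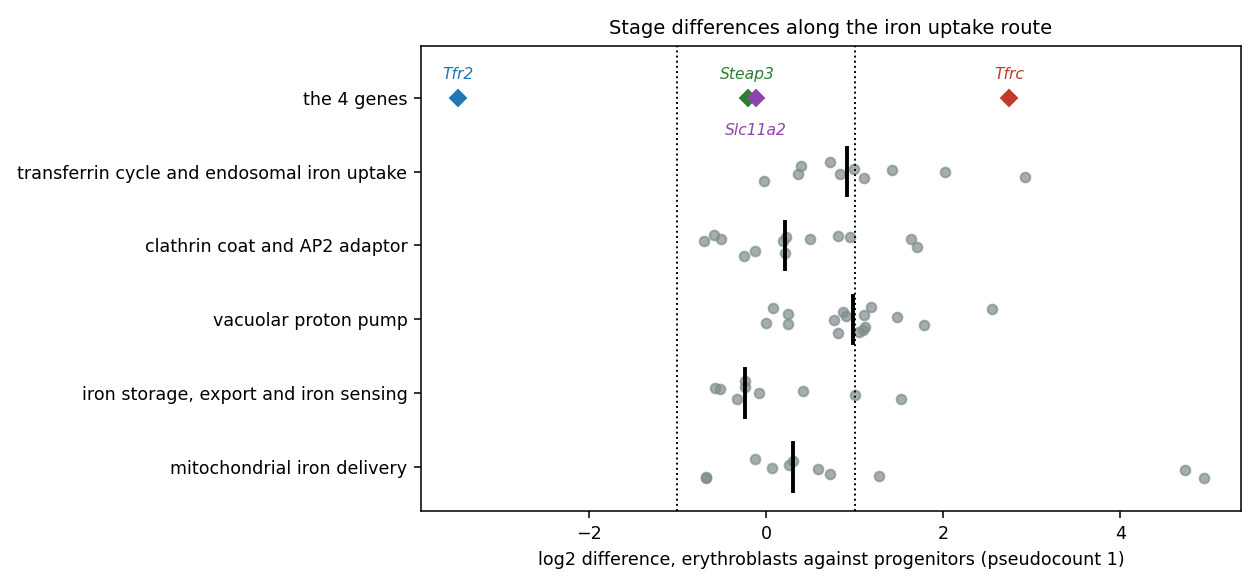
Log2 difference, erythroblasts against progenitors (x axis), of the 4 genes (diamonds) and of each listed gene of 5 lists (grey points, jittered vertically), with black bars at list medians and dotted lines at the 2-fold rule. Tfr2 at -3.47 lies below every point of the lists, and Tfrc at 2.74 lies above all but Picalm, Slc25a37 and Abcb10.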

How the data were processed

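EKLF ChIP-seq, input and RNA-seq samples of 2 stages were grouped by their titles. Members and lists were chosen with earlier results of these data known. Per the submitters' processing notes the build is mm9. Aligner, read counter and peak caller: not given in the sources used here. As for units, the authors' deposited exon table carries RPKM in its name and was read as a coverage signal per coding exon, because 100% of values lay within 0.01 of a whole multiple of 1 step per column (1835 steps per unit in progenitors, 2151 in erythroblasts), whatever the exon. Whether its erythroblast column pools both libraries is not given, so no SD or n is printed. Of the deposited peak lists, column 7 (never below 2.14) was read as the authors' fold enrichment, and column 8 (never below 5) as the authors' -log10 of a p-value. Column 9, of no stated meaning, was listed as other values in the deposited files and not used. Input samples had no values used here.

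Accessions were matched to symbols through RefSeq of GRCm38.p6 (6772 of 6853 transcripts). For each gene the transcript with the most listed exons was kept and its exons were summed, genes with the same exon positions were joined (4 items), and genes with at least 1 in the higher column were compared (5194). The difference is log2((erythroblasts + 1) / (progenitors + 1)), a scale that shrinks the change of low genes, with a fixed rule of at least 2-fold in place of a test, as the design foresaw for 1 column per stage. Peaks were ranked by -log10 p, then enrichment, and called shared at an overlap of 1 bp or more. Genes named beside the members were, per list, up to 4 past the rule by size and up to 2 of the best covered others, and the 5 nearest in log2 difference to each member. Some items that this rule names are left out of the text. Alternatives were other pseudocounts, scalings, filters, exon summaries, windows, ranks and definitions of sharing. The 2-fold rule was tested on simulated exon values and the distance measure on set positions, and the other steps were not tested in this way. Python 3.11.15, pandas 2.3.3, numpy 2.4.6 and matplotlib 3.10.9 were used.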

Additional observations from a re-analysis of the deposited data

How the results depend on the processing

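Of 32 alternative values of the 4 RNA differences 31 kept their side of the 2-fold rule and their sign. Tfrc stayed between 2.54 and 3.19 and Tfr2 between -3.71 and -2.78 under other pseudocounts, scalings, exon summaries and with any 1 exon left out. Slc11a2 went to 0.069 when its exon 4 was left out, under the rule on both sides, and Steap3 to -0.0012 without its exon 0. With a pseudocount of 5 the genes that rose and fell numbered 513 and 411, against 794 and 684. Alternatives for the lists were chosen after seeing the data. The proton pump had 2 rises with a pseudocount of 5, the storage list 1 rise with that pseudocount and 1 with rescaled columns, the clathrin list 4 rises by the median of exon log2 ratios, and the mitochondrial list 1 fall (Hscb) by that median.

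Peak counts followed the window. Tfrc had 1 progenitor and 1 erythroblast peak within 5 kb and within 10 kb, 2 progenitor and 2 erythroblast peaks within 20 kb, and 1 of each among the higher-ranked 50% of each list. Tfr2 had 0 of either kind within 5, 10 and 20 kb, 5 of each within 100 kb, 1 of each among the higher-ranked 50%, and 0 of each when the nearest listed exon had to be its own. Of its 2 shared progenitor peaks 0 had a midpoint within 500 bp of an erythroblast one. The Steap3 erythroblast peak was lost (0) within 5, 10 and 20 kb and among the higher-ranked 50%. Slc11a2 had 0 of either kind within 5 and 10 kb, and 2 progenitor and 4 erythroblast peaks within 100 kb.

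No paired analysis was possible because the table has 1 column per stage with no replicate number, and for the same reason no replicate was left out. Read depth is unknown beyond the steps.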
